A study of Homo sapiens with 6 samples.

Results

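Chemokines, interleukins and myeloid growth factors are the secreted signals by which cells call in and instruct leukocytes. The genes described here were chosen by symbol alone: every row of the deposited table named CCL or CXCL with a number, CX3CL1, IL with a number and at most 1 letter from A to F, or CSF1, CSF2, CSF3, LIF, TNF, TNFSF10, TSLP or MIF. The rule found 49 of 26819 listed genes, 22 of them chemokines (IL8, now CXCL8, included), 21 interleukins and 6 growth factors and other cytokines.

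The libraries came from C4-2 cells, a castration-resistant prostate cancer line derived from LNCaP, carrying Tet-O-YAP5SA. This transgene is switched on by doxycycline and encodes a form of the coactivator YAP1 that the LATS kinases cannot inactivate by phosphorylation. The 3 Dox libraries are from cells given doxycycline for 24 hours, labelled as 0.2 mg/ml, a high value whose unit could not be checked. The 3 Ctrl libraries are from the same transgenic cells without it. The labels do not say whether the line is 1 clone or whether replicates were separate cultures, so p-values reflect library-to-library spread alone, which may be technical. Cells lacking the transgene were not given doxycycline in these samples, and effects of the drug and of the transgene cannot be told apart. YAP1 was at 263, 277 and 268 TPM (reads per gene length, scaled to the same total in each library) in Dox and at 52.7, 57.9 and 59.9 TPM in Ctrl. Reads recovered from the TPM values came to 24960883 to 29262069 per Dox library and 27592031 to 28805183 per Ctrl library.

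Chemokines are small proteins that act through G protein-coupled receptors on leukocytes. Many interleukins, but not all, act through receptors that signal by JAK kinases and STAT transcription factors, and TNF acts through NF-kB. In tumour cells, CCL2 and CSF1 are known as signals to monocytes and macrophages, and YAP1 acts on its targets mainly through the TEAD factors.

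The cells were checked against their label. All 10 luminal prostate markers were tested, summing to 5082 to 5137 TPM in Dox and 6666 to 6744 TPM in Ctrl, with 3 of 10 higher and 5 lower in Dox. Beside this, 35.9% of all tested genes were called higher and 17.8% lower. Of 16 markers of immune, endothelial and stromal cells, 11 were listed and 2 passed the filter. They summed to 14.6 to 15.3 TPM in Dox and 21.5 to 23.5 TPM in Ctrl, mostly from CD68, a lysosomal protein (9.86 ± 0.508 TPM in Dox and 20.2 ± 0.996 TPM in Ctrl, SD, n = 3 each, as for all TPM means here, called lower). VWF was called higher (3.74 ± 0.226 TPM in Dox and 1.25 ± 0.116 TPM in Ctrl). Under the filter, the endothelial cadherin CDH5 had 17, 28 and 24 reads in Dox and 0, 0 and 1 reads in Ctrl (limma voom on the reads, adjusted p = 6.1e-07), and PDGFRB, a receptor of stromal cells, had 3, 4 and 6 reads in Dox and 9, 14 and 11 reads in Ctrl (adjusted p = 0.028). The leukocyte markers CD3E, CD14 and ITGAM had at most 3 reads in any library, and LYZ and CSF1R at most 5. The part of these markers in the results was not tested. In such bulk samples, fewer cells that express a gene and less RNA per cell cannot be told apart.

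Which members were on at all was the first question. Only 11 of the 49 reached 1 TPM in at least 3 of the 6 libraries and were tested. They were MIF, CXCL16, IL32, TNF, CCL2, CCL20, IL12A, CXCL13, LIF, IL23A and CSF1. CCL26, CCL27 and CXCL12 reached 1 TPM in 1 or 2 libraries, and the other 35 members in none. Of those, 20 were silent, with at most 3 reads in every library. MIF alone made up 82.6% to 85.0% of the members' summed TPM in Dox and 90.6% to 92.0% in Ctrl. Among the chemokines, CXCL16 had that place, with 84.0% to 87.1% of their TPM in Dox and 86.5% to 86.7% in Ctrl.

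**Figure D1:**
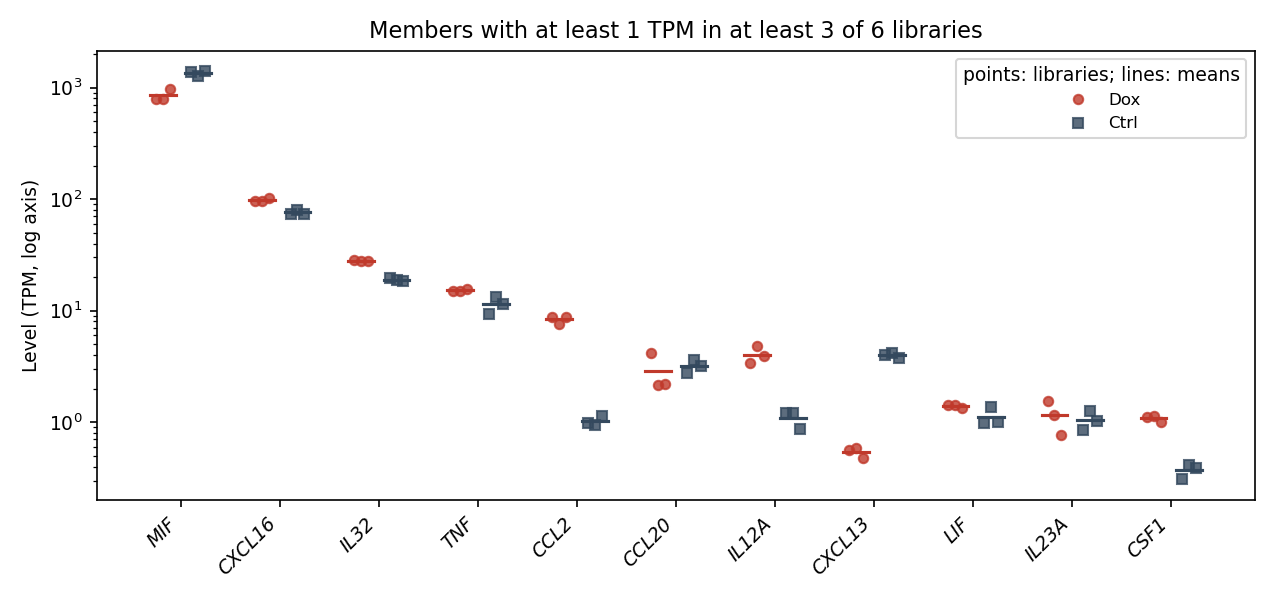
Level of the 11 tested members in TPM on a log axis. Each point is a library, with the 3 Dox libraries left of the 3 Ctrl libraries, and lines are group means. MIF is the highest in all 6 libraries, CCL2, IL12A and CSF1 lie higher in Dox, and CXCL13 lies lower.

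RefSeq promoters (GRCh38.p14) were matched for 22 of the 49 members, and the 250 bases before the start site were searched on both strands for GGAATG, the core letters read by TEAD factors, for TGANTCA, the AP-1 site, and for the degenerate NF-kB consensus. Over all 35116 promoters, 11.9%, 6.57% and 5.21% hold a match to the TEAD, AP-1 and NF-kB letters. Among the 22 members, 2, 5 and 9 do. The promoters of IL12A, which rose with doxycycline, of MIF and TNFSF10, which were lower, and of CCL20, which was not called, are shown because they set a rising, 2 lower and 1 uncalled member side by side. Capitals mark the matches, and letters run 5′ to 3′ on the gene's strand.
IL12A (chr3:159988585-159988834, plus strand): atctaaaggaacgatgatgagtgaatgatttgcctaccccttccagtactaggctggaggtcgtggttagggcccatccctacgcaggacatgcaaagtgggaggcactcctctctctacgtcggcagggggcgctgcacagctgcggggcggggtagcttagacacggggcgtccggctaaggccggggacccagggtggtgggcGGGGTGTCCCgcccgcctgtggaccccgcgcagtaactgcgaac
MIF (chr22:23894133-23894382, plus strand): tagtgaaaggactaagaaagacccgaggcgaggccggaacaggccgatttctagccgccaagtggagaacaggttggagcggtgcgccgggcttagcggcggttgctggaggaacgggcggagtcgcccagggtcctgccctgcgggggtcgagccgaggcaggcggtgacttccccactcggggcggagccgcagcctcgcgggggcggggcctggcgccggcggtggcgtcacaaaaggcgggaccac
TNFSF10 (chr3:172523431-172523680, minus strand): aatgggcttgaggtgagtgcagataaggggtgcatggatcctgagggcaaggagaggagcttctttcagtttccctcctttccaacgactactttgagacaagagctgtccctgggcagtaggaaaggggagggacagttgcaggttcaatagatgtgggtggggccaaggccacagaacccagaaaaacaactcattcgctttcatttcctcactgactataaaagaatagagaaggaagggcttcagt
CCL20 (chr2:227813592-227813841, plus strand): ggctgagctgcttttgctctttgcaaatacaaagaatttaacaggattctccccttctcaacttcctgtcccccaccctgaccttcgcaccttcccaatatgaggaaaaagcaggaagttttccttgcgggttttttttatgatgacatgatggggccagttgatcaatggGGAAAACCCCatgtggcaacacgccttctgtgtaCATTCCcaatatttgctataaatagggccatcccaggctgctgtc
The capitals in IL12A are an NF-kB match. Those in CCL20 are an NF-kB match and, after it, the reverse complement of the TEAD letters. MIF and TNFSF10 hold none of the 3 motifs in this window, and none overlaps another in the 4 promoters shown. CCL20, the single tested member with TEAD letters among the 5 that were matched, was not called. The promoters of CCL2, CXCL13, CXCL16, IL32, LIF and CSF1 were not matched and so not searched. Whether TEAD letters go with the calls was not tested.

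At a limma adjusted p under 0.05, 6 of the 11 tested members were higher in Dox and 2 were lower. Over all 14833 tested genes, 53.7% were called, 35.9% higher and 17.8% lower. The median log2 fold change (on log2(TPM + 1), Dox minus Ctrl) was 0.36 over the 11 members and 0.10 over all tested genes. CSF1 passed the filter through its Dox libraries alone and CXCL13 through its Ctrl libraries alone, so both had to differ to be tested, and the count describes the members without setting them apart. The groups did not overlap for 8 of the 11 tested members, where 61.9% of all tested genes did not overlap.

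**Figure D2:**
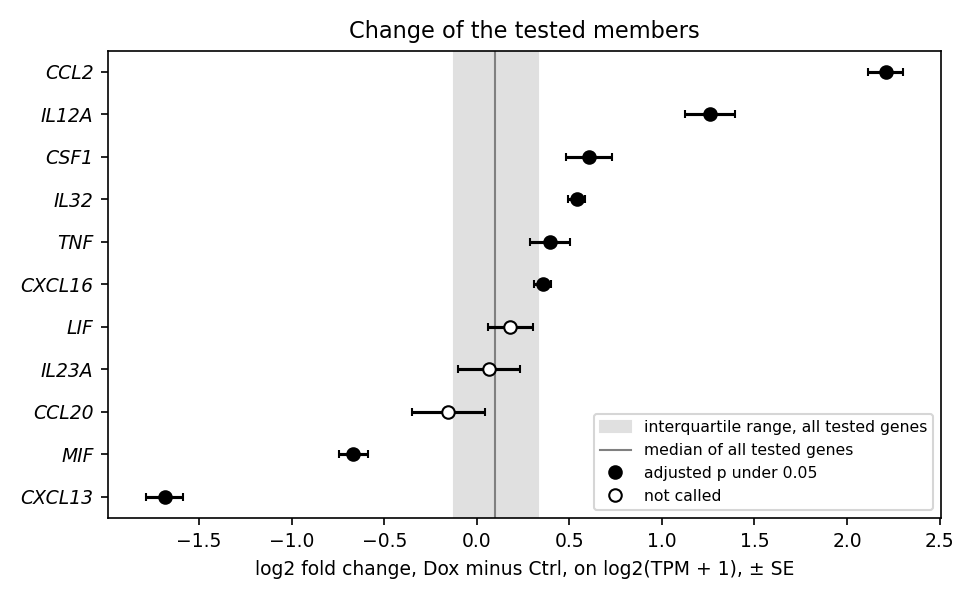
Log2 fold change of the 11 tested members, Dox minus Ctrl on the log2(TPM + 1) scale, with SE. Filled points have an adjusted p under 0.05, and the grey band is the interquartile range of all tested genes, -0.12 to 0.33. CCL2 and IL12A stand above 1, and CXCL13, MIF and, narrowly, CCL20 (-0.15, not called) lie below the band.

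Among the 4 tested chemokines, CCL2, which draws monocytes through the receptor CCR2, changed most. It had 8.69, 7.54 and 8.80 TPM in Dox, against 0.981, 0.939 and 1.14 TPM in Ctrl. The groups lay far apart, with 74, 71 and 88 reads in Dox and 10, 9 and 11 reads in Ctrl. The ratio of means was 8.19 and the log2 fold change 2.21 ± 0.09 (SE, as for all log2 fold changes, adjusted p = 1.35e-06). CXCL13, which attracts B cells through CXCR5, went the other way. It had 0.560, 0.591 and 0.477 TPM in Dox, against 3.98, 4.15 and 3.78 TPM in Ctrl. This is 6, 7 and 6 reads in Dox and 51, 50 and 46 reads in Ctrl, so the Dox level is near the floor of 3 reads and its size is uncertain. Its log2 fold change was -1.69 ± 0.10 (adjusted p = 6.6e-06). This scale understates the change of a gene so low in Dox. Voom on the reads gave -2.83 ± 0.35 for CXCL13, close in size to 2.93 ± 0.30 for CCL2.

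CXCL16, made as a membrane-bound chemokine and scavenger receptor and shed as a ligand of CXCR6, was the most abundant chemokine. It had 95.6, 95.5 and 101.9 TPM in Dox, against 73.8, 80.1 and 74.3 TPM in Ctrl, and every Dox library was above every Ctrl library. Its rise was small beside that of CCL2 (log2 fold change 0.36 ± 0.05, adjusted p = 4.2e-04). CXCL16 overlaps MED11 on the other strand in GENCODE 29, and without the strand setting (not given in the sources used here) reads of the pair cannot be told apart. MED11 was at 36.6 TPM in Dox and 30.3 TPM in Ctrl. CCL20, which attracts cells through CCR6, had 4.20, 2.17 and 2.21 TPM in Dox and 2.76, 3.65 and 3.17 TPM in Ctrl. One Dox library lay above all Ctrl libraries and the others below them. It did not pass the test (log2 fold change -0.15, 95% interval -0.61 to 0.31, adjusted p = 0.55), but without Dox replicate 1 it was called lower (-0.39, adjusted p = 0.041).

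Of the interleukins, IL12A and IL32 rose. IL12A encodes a subunit that pairs with the product of IL12B or of EBI3 to make a secreted cytokine. It had 3.40, 4.79 and 3.90 TPM in Dox, against 1.20, 1.22 and 0.865 TPM in Ctrl. The lowest Dox library was well above the highest Ctrl library, with 203 reads over the 3 Dox libraries and 58 over the 3 Ctrl libraries. The log2 fold change was 1.26 ± 0.14 (adjusted p = 1.6e-04), and voom on the reads gave 1.82 ± 0.25. Its partner EBI3 had 2 reads in all Dox libraries together and 0 in Ctrl, and IL12B was not analysed here. IL12A overlaps an antisense gene, IL12A-AS1, in GENCODE 29, so reads of both may be in its value. IL32, an intracellular and secreted cytokine of lymphoid and epithelial cells, had 28.4, 27.6 and 28.1 TPM in Dox and 19.7, 18.9 and 18.3 TPM in Ctrl. The libraries of each group agreed within 1 TPM of their mean, and the log2 fold change was 0.54 ± 0.05 (adjusted p = 4.7e-05). IL32 overlaps RNU1-125P on its own strand in GENCODE 29, a gene at 6.21 TPM in Dox and 5.40 TPM in Ctrl. IL23A, which encodes the specific subunit of interleukin-23, had 1.54, 1.16 and 0.764 TPM in Dox and 0.857, 1.25 and 1.02 TPM in Ctrl. Its groups overlapped and it did not pass the test (log2 fold change 0.07, 95% interval -0.32 to 0.45, adjusted p = 0.76).

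Of the myeloid growth factors, CSF1, the survival factor of macrophages, was low in both groups and rose. It had 1.11, 1.14 and 1.01 TPM in Dox, against 0.309, 0.416 and 0.391 TPM in Ctrl, or 144 reads over the Dox libraries and 52 over the Ctrl libraries. The log2 fold change of 0.60 ± 0.12 (adjusted p = 0.0044) understates the change of so low a gene on this scale, and limma voom on the recovered reads gave 1.49 ± 0.25. LIF, a ligand of LIFR and IL6ST, had 1.41, 1.43 and 1.35 TPM in Dox and 0.983, 1.38 and 1.01 TPM in Ctrl. Its groups overlapped through 1 Ctrl library, and it did not pass the test (log2 fold change 0.18, 95% interval -0.10 to 0.46, adjusted p = 0.25). LIF overlaps LIF-AS1 and AC004264.1 on the other strand. TNF, the inflammatory cytokine that gives its family its name, had 15.0, 15.1 and 15.5 TPM in Dox and 9.38, 13.3 and 11.5 TPM in Ctrl. The Dox libraries were close together and the Ctrl libraries were not. Its rise (log2 fold change 0.40 ± 0.11, adjusted p = 0.017) loses its call after quantile normalization (0.23, adjusted p = 0.072).

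MIF, a cytokine and tautomerase that binds CD74 and CXCR4, was the most abundant member and fell. It had 793, 797 and 965 TPM in Dox, against 1376, 1267 and 1404 TPM in Ctrl. Dox replicate 3 was nearest to the Ctrl libraries but still below all of them. The log2 fold change was -0.67 ± 0.08 (adjusted p = 2.7e-04). In GENCODE 29, MIF overlaps MIF-AS1 on the other strand and AP000350.4 on its own strand. AP000350.4 was at 2.86 TPM in Dox and 3.08 TPM in Ctrl. DDT, the paralog of MIF, was not chosen by the rule. It fell too, to 74.3, 73.0 and 73.2 TPM in Dox, against 87.0, 96.5 and 90.5 TPM in Ctrl (log2 fold change -0.31 ± 0.04, adjusted p = 6.8e-04).

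Of the 38 members under the filter, 18 had more than 3 reads in some library. They were examined on the recovered reads with limma voom over 19218 genes with at least 10 reads in all, a fit that called 47.7% of its genes (29.5% higher, 18.2% lower). It tested 30 members, among them IL11 with at most 3 reads in any library, and called 12, the 8 above and 4 others. CCL28, a mucosal chemokine of epithelial cells, had 11, 18 and 12 reads in Dox and 3, 0 and 1 reads in Ctrl (voom log2 fold change 3.36 ± 0.68, adjusted p = 1.5e-04). Its Ctrl level is at the floor, so the size of that difference is uncertain. CXCL12, the ligand of CXCR4, had 58, 78 and 49 reads in Dox and 36, 46 and 36 reads in Ctrl (0.66 ± 0.21, adjusted p = 0.012). On TPM without the filter, a fit that called 27.9% of 26819 genes, CXCL12 was not called (adjusted p = 0.11), and the other 3 of these were. TNFSF10, the death ligand TRAIL, had 7, 7 and 3 reads in Dox and 28, 18 and 26 reads in Ctrl (-2.04 ± 0.42, adjusted p = 2.0e-04). TSLP, an epithelial cytokine that acts on dendritic cells, had 7, 9 and 5 reads in Dox and 14, 16 and 21 reads in Ctrl (-1.21 ± 0.40, adjusted p = 0.014). In TPM the groups did not overlap for 6 of the 38 members under the filter, these 4 among them. The share over all genes under the filter was not computed, so this does not set the 4 apart. All 4 lie at or under 1.48 TPM in every library.

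**Figure D3:**
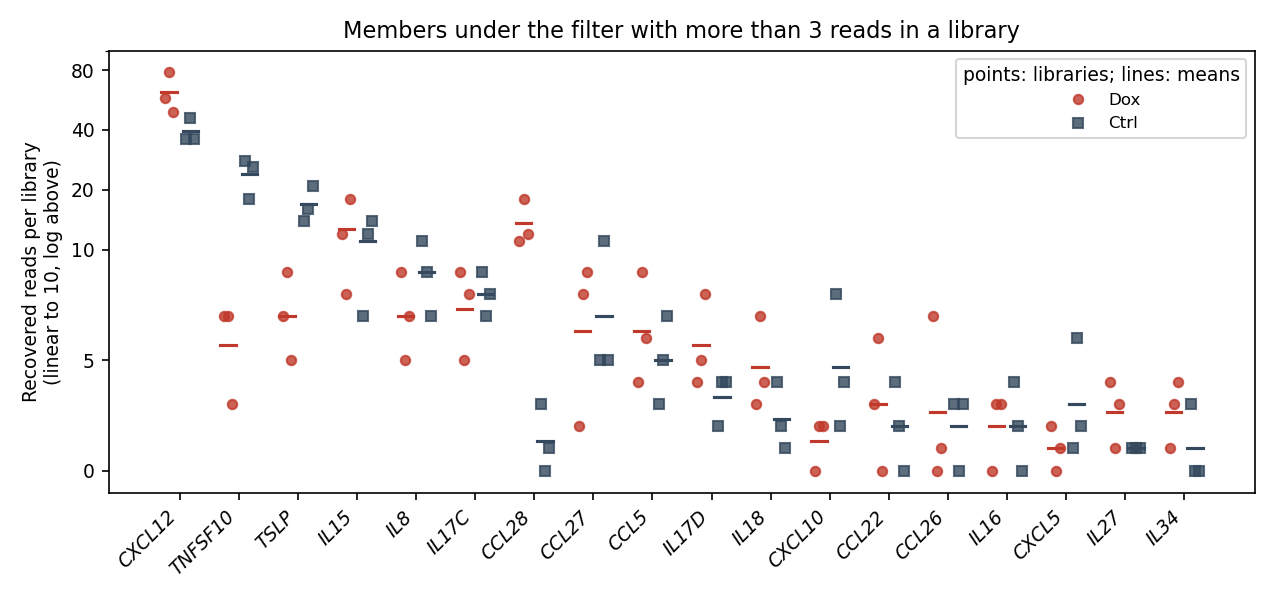
Recovered reads per library of the 18 members under the filter that had more than 3 reads in at least 1 library, on an axis linear to 10 and logarithmic above. The 3 Dox libraries are left of the 3 Ctrl libraries and lines are means. CCL28 lies higher in Dox, TNFSF10 and TSLP lower.

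The rest of that set stayed low in both groups, at no more than 18 reads in any library. IL8, the neutrophil chemokine, had 9, 5 and 7 reads in Dox and 11, 9 and 7 reads in Ctrl. CXCL10, an interferon-induced chemokine, had 0, 2 and 2 reads in Dox and 8, 2 and 4 reads in Ctrl. CCL5, a T cell and monocyte chemokine, had 4, 9 and 6 reads in Dox and 3, 5 and 7 reads in Ctrl. These 3 overlapped between groups and were not called on the reads (adjusted p = 0.57, 0.090 and 0.59). IL15, IL17C, CCL27, IL17D, IL18, CCL22, CCL26, IL16, CXCL5, IL27 and IL34 were not called either, with 3 to 38 reads over the Dox libraries and 3 to 33 over the Ctrl libraries. For IL17D and IL27 each Dox library was above each Ctrl library in TPM, but not in reads, where libraries of both groups tied (IL17D had 4 to 8 reads in Dox and 2 to 4 in Ctrl, and IL27 had 1 to 4 in Dox and 1 in each Ctrl library). In GENCODE 29, exons of CCL27 overlap exons of IL11RA on the other strand and of AL162231.4 on its own strand. CCL26 owed its single value above 1 TPM to 7 reads in Dox replicate 1.

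The 20 silent members had at most 6 reads over the 3 Dox libraries and at most 8 over the 3 Ctrl libraries, too few to show a difference at this depth. Only IL11 among them had enough reads for the voom fit, and it was not called (adjusted p = 0.675). The 9 silent chemokines were CXCL2, CXCL3, CXCL9, CXCL11, CXCL14, CXCL17, CCL8, CCL21 and CCL24. The 11 silent interleukins included IL1A and IL1B, the ligands of IL1R1, and IL4, IL5 and IL13, the type 2 cytokines, with IL7, IL11, IL17B, IL20, IL25 and IL37. CXCL13 is placed on chromosome 4 in GENCODE 29, as are 7 other chemokine members, of which 4 were silent and none was tested. CCL2 and CXCL16 share chromosome 17 with CCL8, which was silent.

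The receptors for these signals were read from lists. Of 12 listed chemokine receptors 3 were tested, and all 3 were called, where 53.7% of all tested genes were. ACKR2 passed the filter through its Dox libraries alone and so had to differ to be tested. ACKR2, an atypical receptor that takes up and degrades inflammatory CC chemokines such as CCL2, had 4.47, 4.92 and 4.07 TPM in Dox, against 0.102, 0.195 and 0.258 TPM in Ctrl. Its reads came to 183, 223 and 196 in Dox and 5, 9 and 12 in Ctrl, and its log2 fold change was 2.21 ± 0.12 (adjusted p = 3.6e-06). This understates the change of a gene so low in Ctrl: voom on the reads gave 4.57 ± 0.33 for ACKR2 and 2.93 ± 0.30 for CCL2, which is also at 2.21 on the log2(TPM + 1) scale. CXCR4, which binds CXCL12 and MIF, fell to 3.66, 4.18 and 3.53 TPM in Dox, against 8.98, 7.36 and 7.67 TPM in Ctrl (-0.91 ± 0.10, adjusted p = 1.5e-04). ACKR3, the atypical receptor of CXCL12, fell as well (-0.70 ± 0.18). CCR2, the receptor of CCL2, had 18 reads over the Dox libraries and 2 over the Ctrl libraries, and CXCR5, the receptor of CXCL13, had 0 reads over the Dox libraries and 1 over the Ctrl libraries.

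Of 20 tested interleukin receptor chains, 10 rose and 2 fell, with a median log2 fold change of 0.26 against 0.10 over all tested genes (9 and 2 under either rescaling). Beside this, 35.9% of all tested genes were called higher and 17.8% lower. IL17RE and IL1R2 passed the filter through their Dox libraries alone, so both had to differ to be tested, and the count and median describe the list without setting it apart. IL17RE, a receptor chain for IL17C, had 1.54, 2.19 and 1.77 TPM in Dox and 0.0954, 0.279 and 0.352 TPM in Ctrl (log2 fold change 1.19 ± 0.15, with a ratio of means of 7.58). IL1R1, the signalling receptor of interleukin-1, rose to 29.3 ± 1.32 TPM in Dox, against 14.7 ± 1.03 TPM in Ctrl, and IL1R2, its decoy, to 1.14 ± 0.111 TPM in Dox, against 0.238 ± 0.115 TPM in Ctrl. IL4R rose as well (0.54 ± 0.14). The shared chain IL6ST rose 1.38-fold and OSMR, the oncostatin M receptor, 1.43-fold. IL6R, which binds interleukin-6, fell to 15.2, 15.5 and 15.9 TPM in Dox, against 26.7, 32.0 and 30.4 TPM in Ctrl (-0.89 ± 0.07, adjusted p = 3.0e-05). IL17RB fell by 0.40 on the log2 scale, a call lost without the filter (adjusted p = 0.054), with the replicate block (0.052) and without Dox replicate 2 (0.069) or 3 (0.062) or Ctrl replicate 2 (0.057) or 3 (0.079). IL12RB1, a receptor chain of interleukin-12, had 0 reads over the Dox libraries and 3 over the Ctrl libraries.

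Of 7 tested receptors of the growth factors, TNF and TRAIL, none rose and 2 fell (4 fell under either rescaling), with a median log2 fold change of -0.11. Over all tested genes, 35.9% were called higher and 17.8% lower, with a median of 0.10. With 7 genes, the count describes the list without setting it apart. TNFRSF10C, which was not called, passed the filter through its Dox libraries alone. TNFRSF1A, the main TNF receptor, fell to 41.1 ± 1.16 TPM in Dox, against 49.3 ± 1.40 TPM in Ctrl. LIFR fell by 0.28, a call lost without Dox replicate 1 (adjusted p = 0.068) or 3 (0.053) or Ctrl replicate 2 (0.062) or 3 (0.071). The TRAIL receptors TNFRSF10A and TNFRSF10B were at 30.0 ± 1.13 and 74.0 ± 2.21 TPM in Dox and 27.3 ± 1.85 and 81.4 ± 6.33 TPM in Ctrl and were not called. The Dox libraries of TNFRSF10B lay below all Ctrl libraries, and it was called lower with median-ratio scaling (adjusted p = 0.0024), with quantile normalization (0.0036), without Ctrl replicate 1 (0.030) and by voom on the reads (log2 fold change -0.18, adjusted p = 0.0021). CSF1R, the receptor of CSF1, had 8 reads over the Dox libraries and 6 over the Ctrl libraries, and CD74, the MIF receptor, had 9 reads over the Dox libraries and 13 over the Ctrl libraries.

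**Figure D4:**
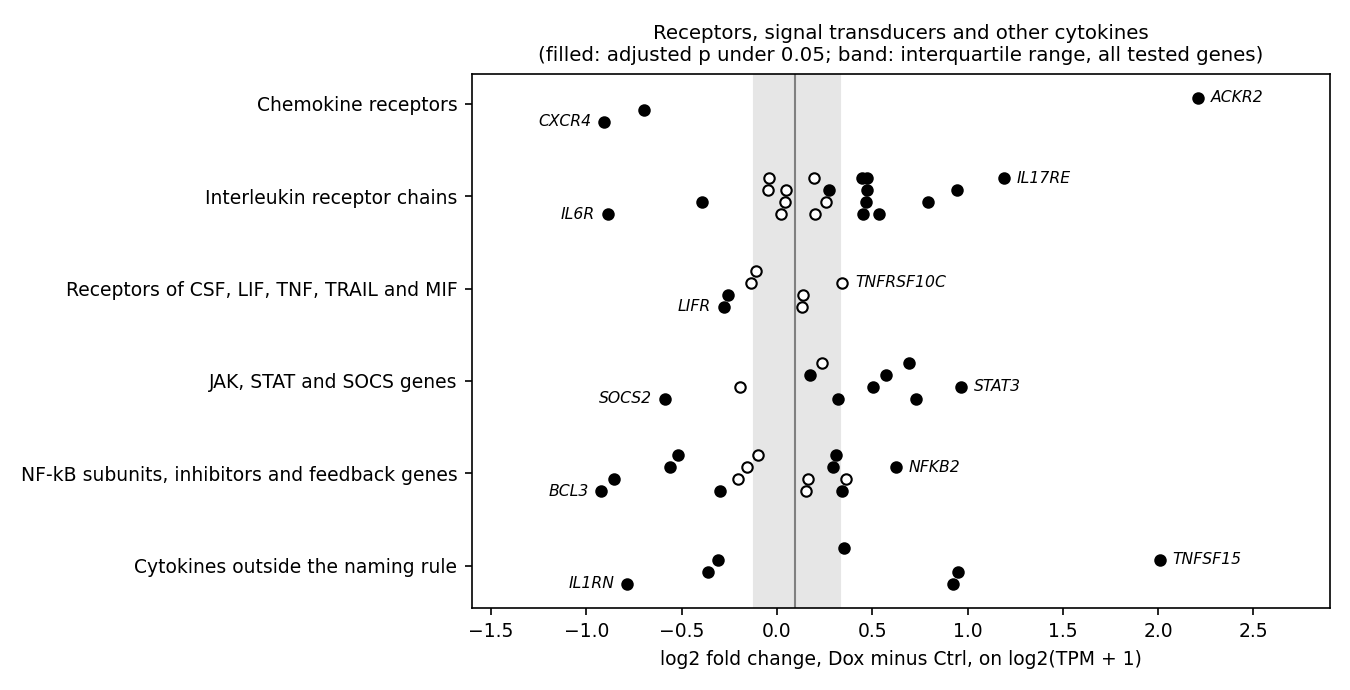
Log2 fold change, Dox minus Ctrl on the log2(TPM + 1) scale, of the tested genes in 6 lists, with the lowest and highest gene of each list named. Filled points have an adjusted p under 0.05 and the band is the interquartile range of all tested genes. ACKR2 (2.21) and TNFSF15 (2.01) lie farthest right, and STAT2 and STAT3 lie right of the band.

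Among genes that carry these signals, JAK, STAT and SOCS genes rose in 7 of 10 tested cases and fell in 1, with a median log2 fold change of 0.41 (6 and 2 with median-ratio scaling, 5 and 2 with quantile normalization). Of all tested genes, 35.9% were called higher and 17.8% lower, with a median of 0.10. With 10 genes, the count describes the list without setting it apart. STAT3, the transcription factor downstream of IL6ST, had 102.5, 102.5 and 102.0 TPM in Dox, against 50.6, 53.9 and 51.3 TPM in Ctrl (0.97 ± 0.04, adjusted p = 6.7e-07). STAT2 rose 1.67-fold and JAK2 1.58-fold, and the feedback inhibitor SOCS2 fell (-0.59 ± 0.14). SOCS3, a feedback inhibitor of STAT3 signalling, was under the filter and higher in Dox. It had 24, 23 and 24 reads in Dox and 8, 9 and 7 reads in Ctrl (limma voom on the reads, adjusted p = 5.3e-04). SOCS1, also under the filter, had 4, 6 and 9 reads in Dox and 2, 2 and 1 reads in Ctrl (adjusted p = 0.026). The NF-kB list was divided, with 4 of 15 tested genes higher, 5 lower and a median of -0.10, beside the same shares over all tested genes. Median-ratio scaling gave 3 higher and 8 lower, and quantile normalization 2 and 8. The 4 largest falls were of BCL3, an atypical member of the inhibitor family (-0.92 ± 0.05), of the inhibitor NFKBIA (-0.85 ± 0.04), and of the feedback genes BIRC3 (-0.56 ± 0.08) and TNFAIP3 (-0.52 ± 0.12). The precursor subunit NFKB2 rose 1.55-fold, TNIP1 1.24-fold, NFKBIE 1.29-fold and IKBKB 1.29-fold. The call of NFKBIE is lost after quantile normalization (adjusted p = 0.14), and that of IKBKB after either rescaling (0.058 and 0.14), with the replicate block (0.054), without the filter (0.064) and without Dox replicate 1 (0.081), Ctrl replicate 1 (0.075) or Ctrl replicate 3 (0.056).

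Of 15 listed cytokines and antagonists that the symbol rule leaves out, 7 were tested, of which 4 rose and 3 fell (3 and 3 under either rescaling), with a median of 0.35. All tested genes had a median of 0.10, with 35.9% called higher and 17.8% lower. IL36RN passed the filter through its Dox libraries alone and so had to differ to be tested. TNFSF15, a TNF family ligand known from endothelial cells, had 23.6, 22.8 and 19.8 TPM in Dox, against 4.30, 5.43 and 4.49 TPM in Ctrl (2.01 ± 0.10, adjusted p = 2.3e-06). IL36RN, the antagonist of interleukin-36, rose to 2.35 ± 0.157 TPM in Dox, against 0.735 ± 0.137 TPM in Ctrl, and KITLG, the stem cell factor, to 4.14 ± 0.327 TPM in Dox, against 1.71 ± 0.101 TPM in Ctrl. IL18BP rose 1.38-fold, a call lost with median-ratio scaling (adjusted p = 0.080), with quantile normalization (0.18), without the filter (0.086) and without any 1 library other than Dox replicate 1 (0.062 to 0.11). IL1RN, the antagonist of interleukin-1, fell to 6.07, 6.45 and 6.08 TPM in Dox, against 11.1, 12.3 and 10.9 TPM in Ctrl (-0.79 ± 0.07), and TNFSF9, the ligand of a costimulatory receptor on T cells, fell to 6.90 ± 0.336 TPM in Dox, against 9.14 ± 0.450 TPM in Ctrl.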

How the data were processed

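Stranded mRNA libraries (TruSeq) of 3 Dox and 3 Ctrl samples were grouped by title. Per the submitters' processing notes, the authors used FastQC 0.11.2, STAR 2.5.3a, featureCounts and edgeR (no role given) on hg19. The deposited table holds TPM made by the authors with GENCODE identifiers; release and strand setting: not given in the sources used here. TPM sum to the same total in each library, so values are relative. The annotation used here is GENCODE 29 (GRCh38), for lengths, overlaps and chromosomes only.

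Genes that reached 1 TPM in 3 or more libraries were tested on log2(TPM + 1) with limma 3.58.1 in R 4.3.3 (eBayes with trend, two-sided, Benjamini-Hochberg over all tested genes, threshold 0.05). Whole reads were recovered from length and a constant per library (tolerance 0.001 reads): 26818 of 26819 genes came out whole, 17686 with their GENCODE 29 length and 9132 with another length, the smallest that fitted. Of the 49 members, 38 came out with their GENCODE 29 length and 11 with another. For those 11 the reads are the fewest that fit and may be too low. In simulated data, 98.3% of 3000 genes had all their reads recovered right. The simulation took the recovered lengths as true and was given those that matched GENCODE 29. It therefore cannot show whether a searched length is right. The fits were tested on simulated data too. Of 1.3-fold changes limma recovered 50% and voom 28%, and of 1.5-fold changes 72% and 92%. Of 2.0-fold changes they recovered 90% and 100%. Changes were placed only in genes above a minimum level, so the lowest genes were not covered. The floor of 3 reads covers counting error only.

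The members and lists were chosen with earlier results of these data known. Every member past the filter is named with all values, then members at 1 TPM in fewer libraries; of each list, up to 4 called genes per direction with the largest change and receptors of called members are named. Other members and list genes were named after their values were seen, and 1 list gene that the rule names is not reported here. Alternatives were a pseudocount of 0.1, no filter, a stricter filter (mean of 5 TPM), quantile and median-ratio rescaling, no variance trend, a replicate block, leaving out each library and voom on recovered reads. Voom on genes with at least 10 reads was added after seeing the data. Figures were drawn with matplotlib 3.10.9.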

Additional observations from a re-analysis of the deposited data

How the results depend on the processing

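Over all genes, the count called ranged from 6752 to 9175 over the alternatives, against 7959, and the members' split of 6 higher and 2 lower was the same under a pseudocount of 0.1, median-ratio rescaling, no variance trend, the replicate block and voom on the tested genes. With the replicate block 7841 genes and 8 members were called. Same-numbered libraries correlated at -0.01, 0.06 and 0.00 in their deviations from group means, so the libraries were treated as sharing only a number. With a mean of at least 5 TPM fewer genes pass, and 6759 of 10780 were called. The 4 members that remained to be tested were all called, 3 higher and 1 lower. Without the filter 11 of 49 members were called, where 27.9% of all genes were. Voom with at least 10 reads called 12 of 30 members and 47.7% of all its genes. Leaving out 1 library gave 8 to 9 called members and 6752 to 7589 called genes. No member changed sign where it was called. Rescaling moved the fold changes of all tested genes by a median of -0.10 (median-ratio) and -0.15 (quantile) on the log2 scale, which turns the split of all called genes from 5319 higher and 2640 lower to 3964 and 3948 or to 3536 and 4348, and small changes such as those of CXCL16 and TNF are to be read against that shift. Depth limits the members under 1 TPM: for a length of 1 kb, 3 reads are worth 0.335 to 0.401 TPM.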
